A study of Mus musculus with 80 samples.

Results

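Synaptic vesicle endocytosis was followed through 10 genes in single cells of the substantia nigra pars reticulata (SNr): Synj1, Dnm1, Dnm3, Sh3gl2, Amph, Bin1, Snap91, Dnajc6, Ap2b1 and Cltc. They are 10 of the 22815 genes in the expression table and were taken by their symbols. The group was selected on measured values, since Synj1 had been singled out in these same cells for its high correlation with Nalcn, the gene of the sodium leak channel, and the other 9 genes were chosen to stand beside it. Their levels and correlations are therefore given as a description, with no test.

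The cells were picked by hand from dissociated SNr of C57Bl/6 mice carrying the GAD1-EGFP transgene, which marks GABAergic neurons, and each was sequenced by itself with the SMART-seq2 method. Of 80 cells, 72 were GFP-positive by label, with 9, 23, 29 and 11 cells taken at postnatal days 14, 15, 16 and 20. The other 8 were GFP-negative, with 3, 2 and 3 cells at days 14, 15 and 16. Which mouse a cell came from is not given in the labels, so cells of an age may share one, each condition counts as 1 sample, and no p-value was made from cells. Every mouse carried the transgene, and all tissue had gone through the same enzyme digestion and hand sorting. Levels are log2(TPM + 1), where TPM is the FPKM of a gene as a share of the cell's summed FPKM, times 1000000, and a gene was called detected above a TPM of 1. The account below rests on the 62 GFP-positive cells with more than 5000 genes detected (9, 20, 24 and 9 cells at days 14, 15, 16 and 20), unless other cells are named.

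A neuron that fires without pause keeps releasing transmitter and must recover the vesicle membrane it adds to its terminals. In clathrin-mediated recovery, adaptor proteins gather cargo and clathrin on the membrane, proteins with curved BAR domains bend it into a neck, dynamin cuts the neck, and synaptojanin and auxilin then strip the coat so that the vesicle can be filled again. Mutations in the human genes of synaptojanin 1 and auxilin cause early-onset parkinsonism, and the SNr lies beside the dopaminergic neurons that are lost in that disease.

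The label of the cells was checked against marker genes. Gad1 and Gad2, genes of GABA synthesis, and the neuronal genes Snap25, Map2, Nefl and Tubb3 were detected in 62 of 62 cells. The neuronal gene Rbfox3 was detected in 45. The vesicular glutamate transporter genes Slc17a6 and Slc17a7 were detected in 0 cells, which allows a share of up to 4.84%, and Slc17a8 in 2. Th, which encodes the enzyme that makes the precursor of dopamine, was detected in 4. Of the other listed dopaminergic markers, Ddc and Slc6a3 were each detected in 5 cells, Pitx3 in 1 and Nr4a2 in 0. Slc18a2, however, was detected in 30 cells, at a mean level of 2.19. Myelin RNA was common all the same, with Mbp detected in 61 cells at a mean level of 9.27. The estimated number of fragments per cell ran from 150594 to 6221429 with a median of 1809178.

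In 4 of the 62 cells a short noncoding RNA filled much of the column. Rnu6 held 84.9% of the FPKM of cell 5 (day 15), and AF357359 held 33.9%, 76.0% and 64.9% in cells 13, 19 and 89 (day 16). Because TPM are shares of a total, the TPM of the other genes in such a cell come from what remained. The median level of the 10 endocytosis genes was 4.03 to 6.03 in these 4 cells and 5.63 to 7.55 in the other 58. Correlations are therefore given with these 4 cells and without them.

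Among the 10 genes, Synj1 and Dnm3 had the highest correlations with Nalcn, so the DNA just upstream of the starts of these 3 genes is shown first. Each line holds the 250 bases before the RefSeq transcript start on the minus strand of GRCm38.p6, written 5' to 3' along the gene, with the CG dinucleotides in capitals. The Synj1 window is chr16:91011309-91011558, upstream of the outer of its 2 RefSeq starts, the Dnm3 window is chr1:162478035-162478284, and the Nalcn window is chr14:123627145-123627394.
Synj1: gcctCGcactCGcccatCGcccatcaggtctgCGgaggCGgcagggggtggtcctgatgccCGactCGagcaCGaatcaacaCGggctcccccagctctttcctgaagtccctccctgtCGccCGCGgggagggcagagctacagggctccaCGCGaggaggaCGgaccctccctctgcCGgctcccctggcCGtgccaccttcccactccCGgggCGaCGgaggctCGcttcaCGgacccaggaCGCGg
Dnm3: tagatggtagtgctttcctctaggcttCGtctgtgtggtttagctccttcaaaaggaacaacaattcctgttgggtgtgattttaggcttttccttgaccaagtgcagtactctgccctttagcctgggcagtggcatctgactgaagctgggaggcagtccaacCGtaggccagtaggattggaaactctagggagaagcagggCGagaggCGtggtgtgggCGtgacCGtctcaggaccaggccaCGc
Nalcn: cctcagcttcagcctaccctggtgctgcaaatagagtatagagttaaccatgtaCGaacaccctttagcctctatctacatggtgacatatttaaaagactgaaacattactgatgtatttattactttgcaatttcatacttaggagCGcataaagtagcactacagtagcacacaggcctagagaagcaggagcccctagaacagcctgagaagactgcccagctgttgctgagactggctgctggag
The lines differ in their CG content. The Synj1 window holds 24 CG dinucleotides and 71.2% G or C, the Dnm3 window 7 and 54%, and the Nalcn window 2 and 45.2%, where the median over 32851 such windows of all genes was 6. RefSeq gave 11 windows for 9 of the 10 members, with 7 to 30 CG each. They were searched on both strands for 5 promoter motifs whose letters do not contain one another. The GC box GGGCGG lay in windows of Synj1 (the inner start), Sh3gl2, Snap91 and Dnajc6, and in 32.7% of all windows. The cyclic AMP response element TGACGTCA lay in those of Sh3gl2 and Ap2b1, and in 1.55% of all. CCAAT lay in that of Dnm3 (33.8% of all), while TATAAA (12.4% of all) and the E-box CACGTG (6.02% of all) lay in none. The Nalcn window held none of the 5. These matches describe letters in a window only.

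All 10 genes were expressed across the SNr neurons, and 6 of them in every one of the 62 cells. Of all 22815 genes, 8027 were detected in 50% of the cells or more and 874 in every one. The lowest share of cells was 91.9% (57 of 62, exact 95% interval 82.2 to 97.3, counting error only), for Bin1. The median of the 10 mean levels was 6.46, against 3.97 for the 8027 genes that were above this limit in 50% of the cells or more and 7.65 for 21 genes of vesicle release such as Snap25 and Syt1. FPKM are corrected for transcript length, and levels are set beside each other between genes on that basis. Other differences between genes in how well their reads are recovered were not examined.

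Of the coat genes, the clathrin heavy chain was among the strongest of the 10 and the AP-2 subunit the weakest. Cltc (ENSMUSG00000047126, chr11:86694351-86757565, minus strand) encodes the heavy chain whose trimers form the clathrin lattice. Its level ran from 4.83 over a median of 8.08 to 8.66, with a mean of 7.90 ± 0.69 (SD over cells, n = 62). The lowest value belonged to cell 5, in which Rnu6 held most of the FPKM. Snap91 (ENSMUSG00000033419, chr9:86765923-86880654, minus strand) encodes AP180, the neuronal adaptor that assembles clathrin and binds the vesicle protein VAMP2. It ran from 0.83 over 7.36 to 8.58 (mean 7.18 ± 1.13, n = 62) and was detected in 61 cells. Ap2b1 (ENSMUSG00000035152, chr11:83299024-83405035, plus strand) encodes the beta subunit of the AP-2 adaptor, which holds clathrin to the membrane. It ran from 0 over 4.48 to 6.62 (mean 4.11 ± 1.69, n = 62), was detected in 58 cells, and so varied far more from cell to cell than Cltc. The other subunits of AP-2 were higher, with means of 9.54 for Ap2m1, 8.58 for Ap2s1, 5.97 for Ap2a2 and 4.91 for Ap2a1. In 62 of 62 cells Ap2m1 exceeded Ap2b1, by 5.44 ± 1.64 (n = 62).

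The membrane-bending genes spanned most of the range of the group. Sh3gl2 (ENSMUSG00000028488, chr4:85205126-85639195, plus strand), for endophilin A1, which bends membrane and recruits synaptojanin, was the highest of the 10. It ran from 6.24 over 8.63 to 10.45 (mean 8.48 ± 0.77, n = 62), which placed it 399th of the 8027 expressed genes. Amph (ENSMUSG00000021314, chr13:18948205-19150921, plus strand) encodes amphiphysin, which brings dynamin to the neck. It ran from 0 over 6.57 to 8.29 (mean 6.03 ± 1.81, n = 62) and was detected in 59 cells, or 95.2% (exact interval 86.5 to 99.0). Bin1 (ENSMUSG00000024381, chromosome 18), the second amphiphysin gene, is used by many cell types besides neurons. It ran from 0 over 5.48 to 7.35 (mean 4.90 ± 1.91, n = 62). Most cells thus held both genes at a substantial level, but Amph was at exactly 0 in 2 cells and Bin1 in 5. Cell 29, which had the fewest estimated fragments of the 62 cells (150594), had both at 0.

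The genes of scission and uncoating lay close together in the middle of the range. Dnm3 (ENSMUSG00000040265, chr1:161982453-162478034, minus strand) and Dnm1 (ENSMUSG00000026825, chr2:32308471-32353338, minus strand) encode the dynamins of brain, GTPases that cut the vesicle neck. Dnm3 ran from 3.51 over 6.83 to 8.35 (mean 6.55 ± 1.08, n = 62), and Dnm1 from 3.84 over 6.26 to 8.36 (mean 6.20 ± 0.90, n = 62). The library kit did not mark strand, so reads where genes overlap cannot be assigned. Exons of Dnm1 overlap those of Ciz1 on the other strand (mean 2.13), and Dnm3os, at a mean of 1.13, lies on the other strand in an intron of Dnm3. Synj1 (ENSMUSG00000022973, chr16:90936092-91011308, minus strand) encodes the phosphatase that removes phosphates from membrane phosphoinositides and so loosens the coat. It ran from 1.32 over 6.73 to 8.04 (mean 6.45 ± 1.27, n = 62). Dnajc6 (ENSMUSG00000028528, chr4:101496648-101642799, plus strand) encodes auxilin, which calls the chaperone Hsc70 to the clathrin cage. It ran from 2.10 over 6.70 to 8.13 (mean 6.48 ± 1.22, n = 62). All 4 genes were detected in 62 of 62 cells, and Hspa8, the gene of Hsc70, stood at 12.50 ± 0.54 (n = 62), the third highest mean of all expressed genes.

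The plot of levels by age shows this order and the width of each gene's spread.

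**Figure D1:**
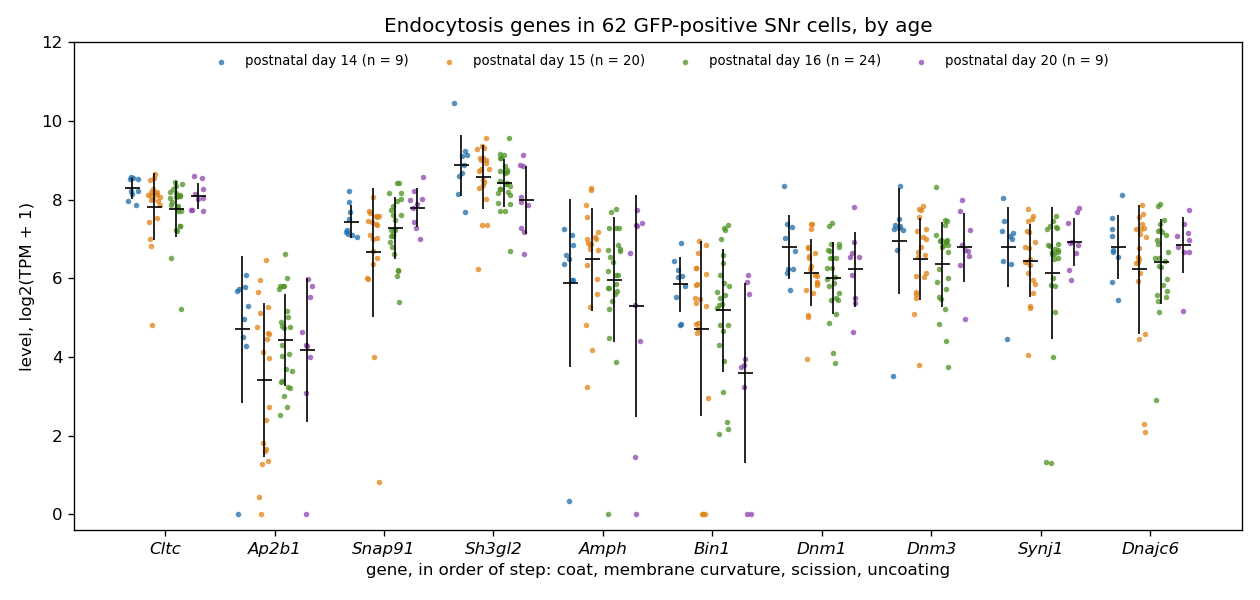
Level of each endocytosis gene, log2(TPM + 1), in each of the 62 GFP-positive SNr cells with more than 5000 genes detected, split by postnatal day; a point is a cell, and the black bar and line are the mean and SD over the cells of an age. Sh3gl2 and Cltc sit highest with little spread, whereas Amph, Bin1 and Ap2b1 spread down to 0.

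Only part of this order held at every age. From the highest mean down, the order was Sh3gl2, Cltc, Snap91, Dnm3, Dnajc6, Synj1, Dnm1, Amph, Bin1 and Ap2b1. Among the 9 neighbouring pairs, Cltc lay above Snap91, Snap91 above Dnm3 and Amph above Bin1 at each of the 4 ages, by a mean difference larger than the SD between ages. The other 6 neighbours differed by less than that SD or changed order at some age, so that neighbours from Dnm3 down to Amph did not differ beyond their spread. The span of the 4 age means passed 1 for Snap91 (1.13), Amph (1.19), Ap2b1 (1.29) and Bin1, and stayed below 1 for the others. The means of the 4 ages spanned 0.53 to 1.29 for 9 of the 10 genes and 2.26 for Bin1, which stood at 5.85 ± 0.70 at day 14 (n = 9), 4.72 ± 2.23 at day 15 (n = 20), 5.18 ± 1.57 at day 16 (n = 24) and 3.59 ± 2.28 at day 20 (n = 9). The SDs of the ages overlap, and the cells of day 20 also held fewer fragments, with a median estimate of 559831 against 1411887 to 2209112 at the other ages, so age and depth cannot be told apart.

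The brain forms of endophilin, synaptojanin, dynamin, AP180 and auxilin outweighed the widespread forms in nearly every cell. Sh3gl2 exceeded Sh3gl1, the widespread endophilin, in 61 of 62 cells, by 4.57 ± 2.59 (n = 62), and Sh3gl3 in 62. Synj1 exceeded Synj2 in 61 cells, by 5.02 ± 2.52 (n = 62). Dnm1 and Dnm3 each exceeded Dnm2, the dynamin of most other tissues, in 60 cells, and Dnm2 was detected in 27 cells only. Snap91 exceeded its widespread relative Picalm in 60 cells, by 2.09 ± 1.53 (n = 62), and Dnajc6 exceeded Gak in 59, by 2.55 ± 1.62 (n = 62). Each of these differences had the same sign at 4 of 4 ages. Within the dynamins, Dnm3 exceeded Dnm1 in 44 cells, by 0.35 ± 1.30 (n = 62), also with the same sign at each age. For Ap2b1 the order went the other way, since Ap1b1, the related subunit of the AP-1 adaptor that works at the Golgi, exceeded Ap2b1 in 57 cells, with a mean of 5.97 against 4.11. Bin2, a relative of the amphiphysins, was detected in 2 cells.

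**Figure D2:**
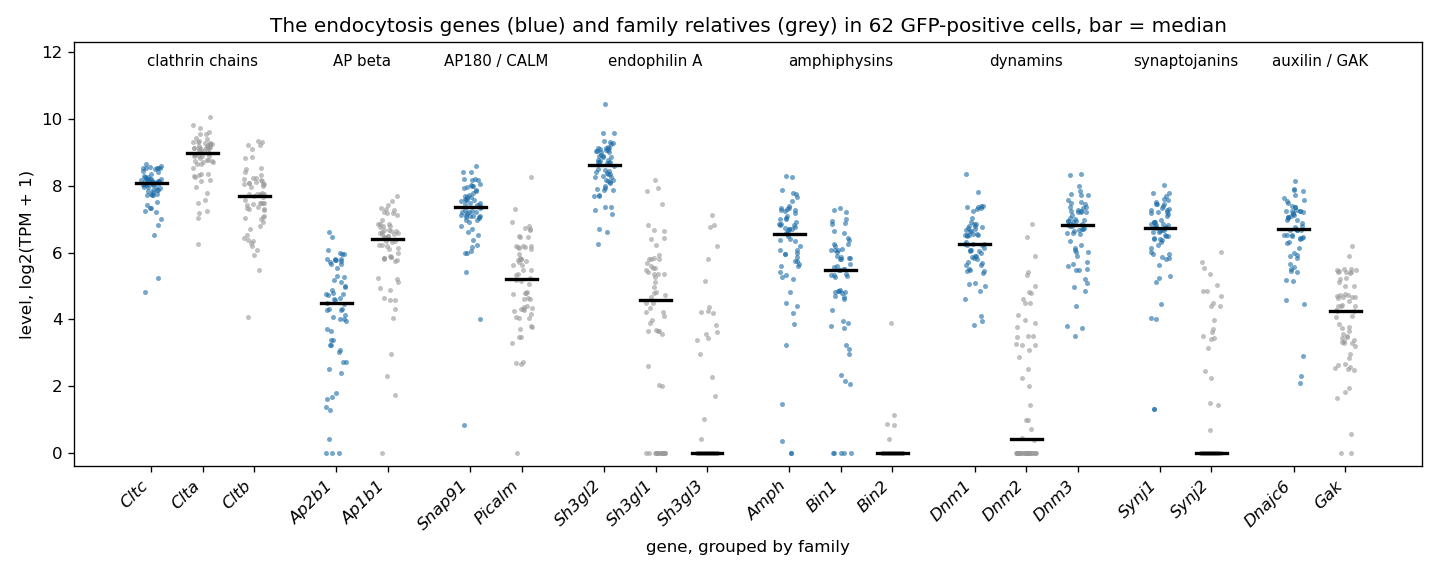
Level, log2(TPM + 1), of the endocytosis genes (blue) and of their relatives (grey) in the 62 cells, grouped by family; a point is a cell and the bar is the median. The blue medians lie at 5.48 or above except that of Ap2b1 at 4.48, which lies below its relative Ap1b1, and those of Sh3gl3, Synj2 and Bin2 lie at 0.

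Endocytosis genes outside the group of 10 were more often missing. Of 61 such genes in lists of adaptors, scaffolds, membrane-bending proteins, lipid enzymes, controls and relatives, 42 passed TPM 1 in 50% of the cells or more. Among all 22815 genes, 8027 did so. The median mean level of the 61 was 3.93. The coat list held 8 of 12 genes at that share, among them Clta and Necap1 with means of 8.80 and 8.55, while the stonins Ston1 and Ston2 were detected in 0 of 62 cells, which allows a share of up to 4.84%. The scaffold list held 9 of 14, led by Eps15 (6.85), and the membrane-bending list 7 of 12, led by Pacsin1 (6.88), the syndapin of neurons. The lipid and uncoating list held 8 of 9. All 6 genes of the list of controls passed, among them Ppp3ca (6.82) and Ppp3r1 (7.42), subunits of calcineurin, the phosphatase that activates several of these proteins when calcium enters, and Cdk5 (6.86), the kinase that opposes it.

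With genes detected per cell held fixed, Synj1 and Dnm3 rose and fell with Nalcn across the 62 cells. Nalcn itself ran from 0 over 5.45 to 6.85 and was detected in 57 cells. The partial correlation was 0.632 for Synj1, second of 8026 genes, and 0.541 for Dnm3, which ranked 13th. Snap91 and Dnajc6 both came to 0.304, Amph to 0.268, Cltc to 0.199, Sh3gl2 to 0.195, Ap2b1 to 0.150, Dnm1 to 0.084 and Bin1 to -0.021. Thus 4 of the 10 reached 0.3, a size reached by 6.92% of the 8026 genes, and since the group was built around this relation nothing is read from that count. The median was 0.234 over the 10 genes, 0.064 over the 42 other endocytosis genes, 0.093 over 20 genes of vesicle release and 0.053 over all. Of the 42 others, 5 reached 0.3, with Aak1, a kinase of AP-2, highest at 0.467.

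Leaving out the 4 cells dominated by a short RNA changed the values of Synj1 and Dnm3 little, but those of Synj1 were not alike at every age. Without those cells the partial correlation with Nalcn was 0.630 for Synj1 and 0.512 for Dnm3. Snap91 and Dnajc6 both fell to 0.257, so that 2 of the 10 reached 0.3. The share of all genes at that size without the dominated cells is not given here, and nothing is read from that count. Over all cells of an age, the value for Synj1 was 0.732 at day 14, 0.527 at day 15 and 0.829 at day 16, and 0.049 among the 9 cells of day 20. Without the dominated cells, which were of days 15 and 16, it was 0.492 and 0.863 at those ages. Dnm3 had values from 0.436 to 0.812 over the 4 ages, and 0.686 and 0.393 at days 15 and 16 without the dominated cells. At days 14 and 20, with 9 cells each, 1 cell held both the lowest Dnm3 and the lowest Nalcn. These were cell 45 (3.51 and 1.41) and cell 35 (4.97 and 0). Cell 45 also held the lowest Synj1 of day 14, at 4.46. At day 16, cells 12 and 79 held the lowest Synj1, at 1.32 and 1.33, and both had Nalcn at 0. The values of Dnm3 and Synj1 at these ages without those cells were not computed. Dnajc6 ranged from 0.692 at day 15 to -0.496 at day 20. Without the cells in which Nalcn was at 0, Synj1 had 0.556 and Dnm3 0.489 (n = 58), and the rank-based value over all cells was 0.477 and 0.437. Of the 4 cells with Nalcn at 0, all equally far from its median, cells 10 and 12 came first in order. Without these 2 cells, Synj1 had 0.601 and Dnm3 0.499. The points of these correlations share libraries made side by side, age and depth, and Synj1 and Nalcn both correlated negatively with the estimated number of fragments, at -0.311 and -0.254 with genes detected held fixed. Synj1, Dnm3 and Nalcn also each correlated with the mean of 5 neuronal markers, at 0.434, 0.379 and 0.338, where the median over all expressed genes was 0.105. The part of these shared relations in the correlation with Nalcn was not tested.

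**Figure D3:**
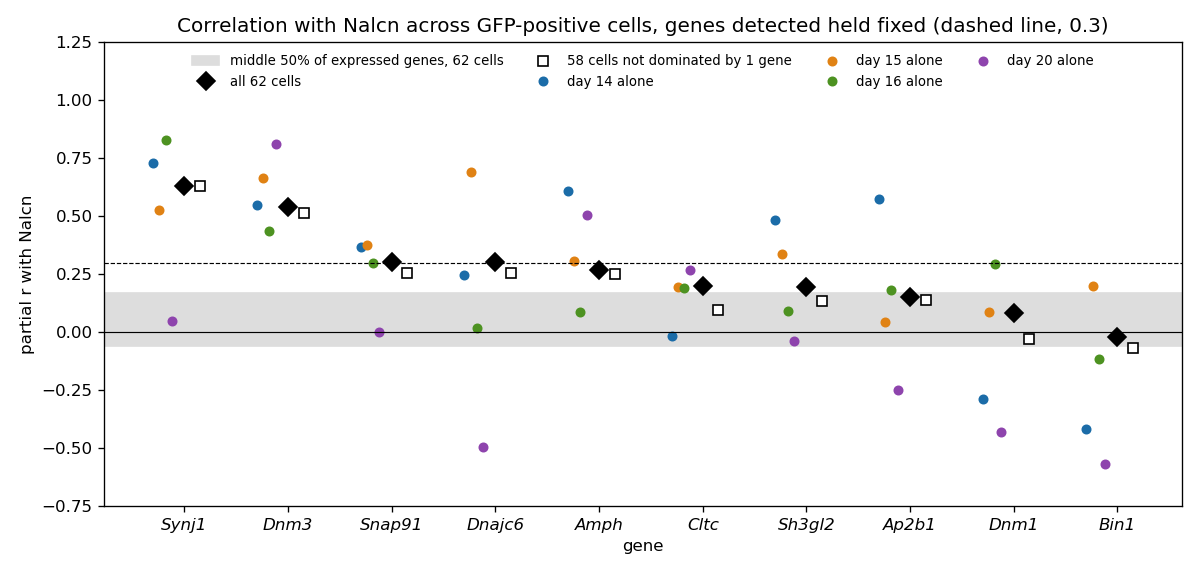
Partial correlation with Nalcn across GFP-positive cells, genes detected held fixed, for each endocytosis gene: diamonds are all 62 cells, open squares the 58 cells not dominated by 1 gene, coloured points the cells of 1 age (9, 20, 24 and 9 cells), and the grey band the middle 50% of 8026 genes. Dnm3 lies above 0.4 at every age, and Synj1 does so at 3 of the 4. At days 14 and 20 a single cell holds both the lowest Dnm3 and the lowest Nalcn of its age. The one of day 14 also holds the lowest Synj1, and at day 16 cells 12 and 79 hold the lowest Synj1 with Nalcn at 0.

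Among themselves, the 10 genes were less correlated once the dominated cells were left out. Over all 62 cells the median partial correlation of the 45 pairs was 0.218, and 12 pairs (26.7%) reached 0.3, a size reached by 4.24% of the pairs of expressed genes. The highest were Synj1 with Dnm3 at 0.538, Dnm1 with Cltc at 0.534, Sh3gl2 with Cltc at 0.519 and Dnm1 with Bin1 at 0.463, and Cltc reached 0.3 with 6 of the other 9. Without the 4 dominated cells the median was 0.081 and 5 pairs (11.1%) reached 0.3, against 3.24% of the pairs of expressed genes. Genes of vesicle release moved in the same way, from 40.5% of 190 pairs to 16.8%. The pairs that stayed above 0.3 were Synj1 with Dnm3 at 0.469, Dnm1 with Bin1 at 0.461, Sh3gl2 with Amph at 0.371, Snap91 with Ap2b1 at 0.331 and Dnm3 with Amph at 0.318. Dnm1 and Amph, whose proteins bind each other, had a partial correlation of -0.354 in the 58 cells and of -0.240 in the 62.

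Pairs with Cltc moved most when those cells were left out. Dnm1 with Cltc fell from 0.534 to 0.188 and Sh3gl2 with Cltc from 0.519 to 0.207. Genes whose proteins work together gave mixed values. Cltc and its light chain Clta went from 0.639 to 0.254, Cltc and Hspa8 from 0.611 to -0.088, and Dnajc6 with Hspa8 was at 0.088 and -0.166. Ap2b1 with the AP-2 subunits Ap2m1 and Ap2s1 was at 0.240 and 0.317, and at 0.178 and 0.279 in the 58 cells. Synj1 with Sh3gl2, its recruiter, was at 0.244 and then 0.081. The amphiphysins Amph and Bin1, whose proteins form dimers, were at -0.145 and -0.167. Snap91 with Necap1, another coat-associated protein, was higher, at 0.626 and 0.534, although it was -0.488 among the 9 cells of day 20.

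The pairs that kept their size were not steady over the ages either. Synj1 with Dnm3 was at 0.706, 0.702 and 0.516 at days 14, 15 and 16 and at 0.095 at day 20. Sh3gl2 with Amph ran from -0.093 at day 16 to 0.836 at day 14. Snap91 with Ap2b1 was above 0 at each age, from 0.015 to 0.322. Dnm1 with Bin1 ran from -0.019 at day 14 to 0.621 at day 16. Both of these genes also correlated with the mean of the astrocyte markers, at 0.333 and 0.340 with genes detected held fixed, whereas the other 8 ranged from -0.179 to 0.158. Of the 9 astrocyte markers, 4 passed TPM 1 in 50% of the cells or more, and the list's mean level ran from 1.31 to 7.46. The part of astrocyte RNA in the Dnm1 and Bin1 values was not tested. The mean of the 5 neuronal markers had its highest correlations among the 10 genes with Dnm1 (0.537) and Cltc (0.532), and the lowest with Amph (-0.090).

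**Figure D4:**
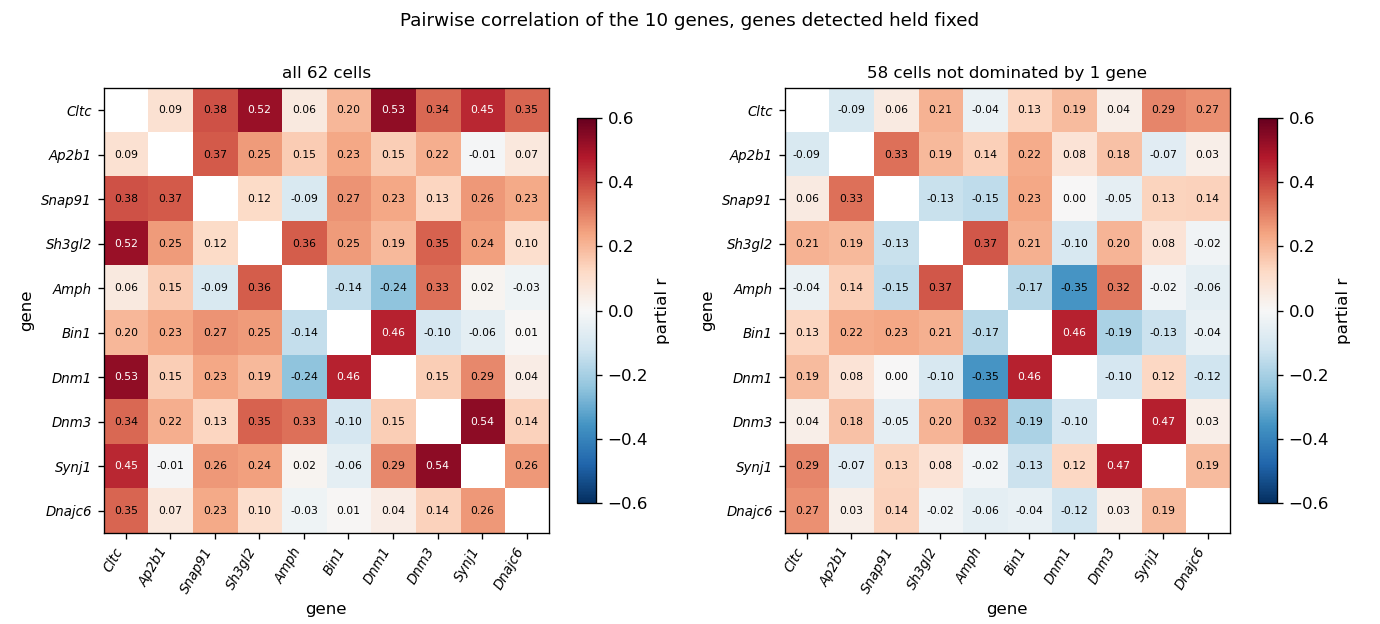
Partial correlation between each pair of endocytosis genes, genes detected held fixed, in all 62 cells (left) and in the 58 cells in which no gene held over 25% of the FPKM (right); the colour scale runs from -0.6 to 0.6. The row of Cltc loses most of its red on the right, while Synj1 with Dnm3 and Dnm1 with Bin1 keep 0.469 and 0.461.

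The genes most like Synj1 in pattern kept their likeness in the 58 cells, whereas those most like the whole group lost part of it. Outside the 10 genes and Nalcn, the 5 highest partial correlations with Synj1 over the 62 cells were those of Pdhb (0.726), a subunit of pyruvate dehydrogenase, Cyfip2 (0.707), which regulates actin, Ttll7 (0.676), which modifies tubulin, Opa1 (0.674), which fuses inner mitochondrial membranes, and Ndufb6 (0.667), a subunit of respiratory complex I. They held at 0.620 to 0.719 in the 58 cells. By age they were less steady, since Opa1 alone stayed at or above 0 at each, from 0.017 to 0.917, and Pdhb fell to -0.798 at its lowest age. For the mean of the 10 standardised genes, Rab6b (0.781), a neuronal Golgi GTPase, was closest, followed by Chchd2 (0.765), Gapdh (0.741), Pebp1 (0.732) and Hsp90ab1 (0.720). These 5 dropped to 0.318 to 0.529 without the dominated cells.

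In the GFP-negative cells most endocytosis genes were lower on average, but the 8 cells were of different kinds. Cells 44, 48, 75 and 86 held Th at 12.21, 12.89, 12.53 and 13.21 and Slc6a3, the dopamine transporter gene, at 11.16 or above. Cells 68, 70 and 77 held Snap25 below 1 and the myelin gene Mog at 12.55, 13.31 and 8.75. Cell 47 held both Th and Mog at 0, with Snap25 at 10.10. In cell 77, Rnu6 took 93.3% of the FPKM, so the TPM of other genes there share what remained.

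Of the coat genes, Snap91 was mostly near its GFP-positive level in the cells with Th and lower in those with high Mog, whereas Cltc overlapped between these cells. Cltc was at 8.40, 8.18, 7.33 and 7.06 in cells 44, 48, 75 and 86, at 6.47, 7.07 and 3.62 in cells 68, 70 and 77, and at 5.86 in cell 47. With Rnu6 left out of the sum of cell 77, Cltc was at 7.41 there. Snap91 was at 8.88, 7.29, 7.88 and 6.31 in the cells with Th and at 8.58 in cell 47, and at 4.92, 0 and 0 in cells 68, 70 and 77. The 8 GFP-negative cells thus reached from below the lowest of the 62 GFP-positive cells to above the highest for Snap91. Ap2b1 was at 0 in cells 44, 47 and 75 and at 5.45, 4.40, 5.83, 1.30 and 4.76 in cells 48, 68, 70, 77 and 86. It was at 4.51 in cell 77 with Rnu6 left out of the sum.

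Among the membrane-bending genes, Sh3gl2 was lower on average in the GFP-negative cells and Bin1 was higher by 0.70. The Bin1 difference was 0.17 without cell 70 and 1.09 without cell 77. Sh3gl2 was at 8.65, 7.67, 6.55 and 7.19 in cells 44, 48, 75 and 86, at 0.54, 8.32 and 0.08 in cells 68, 70 and 77, and at 0 in cell 47. Those 4 cells with Th lay inside the range of the GFP-positive cells, and 3 of the other 4 lay below its lowest value of 6.24. That lowest value came from cell 5, in which Rnu6 held most of the FPKM. Among the 58 cells not dominated by 1 gene, the lowest was 6.63, in cell 29, and cell 75 lay below it. Bin1 was detected in 8 of 8 GFP-negative cells, from 2.85 over a median of 5.66 to 9.24, and its highest value, in cell 70 with high Mog, was above all 62 GFP-positive cells. Amph was at 0 in cell 77 and from 4.53 to 8.05 in the others.

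For scission and uncoating, the 4 cells with Th lay within the range of the GFP-positive cells or at its edge, and the cells with high Mog held less in most values. Dnm3 was at 6.83, 6.62, 7.16 and 6.77 in cells 44, 48, 75 and 86 and at 5.52, 1.84, 1.97 and 0 in cells 68, 70, 77 and 47. Dnm1 ran from 5.48 to 6.17 in the cells with Th and was at 0, 3.98 and 0.96 in cells 68, 70 and 77. Synj1 was at 5.75, 6.94, 4.84 and 6.40 in the cells with Th, at 3.95, 3.67 and 0.29 in cells 68, 70 and 77, and at 1.97 in cell 47. With Rnu6 left out of the sum of cell 77, Dnm3 was at 5.48 there, Dnm1 at 3.93 and Synj1 at 2.13. Dnajc6 was at 8.14, 7.81 and 7.95 in cells 48, 75 and 86, but at 3.86 in cell 44, which had the fewest estimated fragments of the 8, 153556. In the cells with high Mog, some widespread relatives stood above the brain forms. The values of cell 77 that follow keep Rnu6 in the sum. Dnm2 was at 7.13, 7.82 and 2.55 in cells 68, 70 and 77, above both Dnm1 and Dnm3 in each. Synj2 was at 5.55, 6.79 and 2.78 in these cells, above Synj1, and Picalm at 5.19, 4.98 and 3.65, above Snap91. In the cells with Th, Dnm2 was at 0 in cells 44, 48 and 75 and at 4.18 in cell 86, below both other dynamins, although Synj2 at 5.67 exceeded Synj1 in cell 75.

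As a group mean, 8 of the 10 genes were lower by at least 1 in the GFP-negative cells, and 0 were higher by at least 1. Among the 8719 genes that 50% or more of either group's cells expressed, 47% were lower by that much and 6.97% higher, and among all 18310 genes above 0 in any of these cells 25.2% were lower. The differences ran from -3.60 for Sh3gl2 (4.88 ± 3.92 over the 8 cells, 8.48 ± 0.77 over the 62) to 0.70 for Bin1 (5.59 ± 2.00 over the 8 cells), with a median of -1.54. Those SDs are as large as the differences, and 1 library decided several of them: without cell 77 the number lower by at least 1 was 5, and without cell 70 it was 6. Leaving Rnu6 out of the sum of cell 77 alone gave 5, with Bin1 then higher by 1.16. In that cell Cltc was then at 7.41 and Synj1 at 2.13, while Snap91 and Amph remained at 0 and Sh3gl2 was at 0.92. Leaving such dominant genes out of the sums of all cells, which also brought the GFP-positive cells past the filter to 64, gave 6. Over the 5 GFP-negative cells with more than 5000 genes detected it was 5. Shares over all genes were not computed for these settings.

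**Figure D5:**
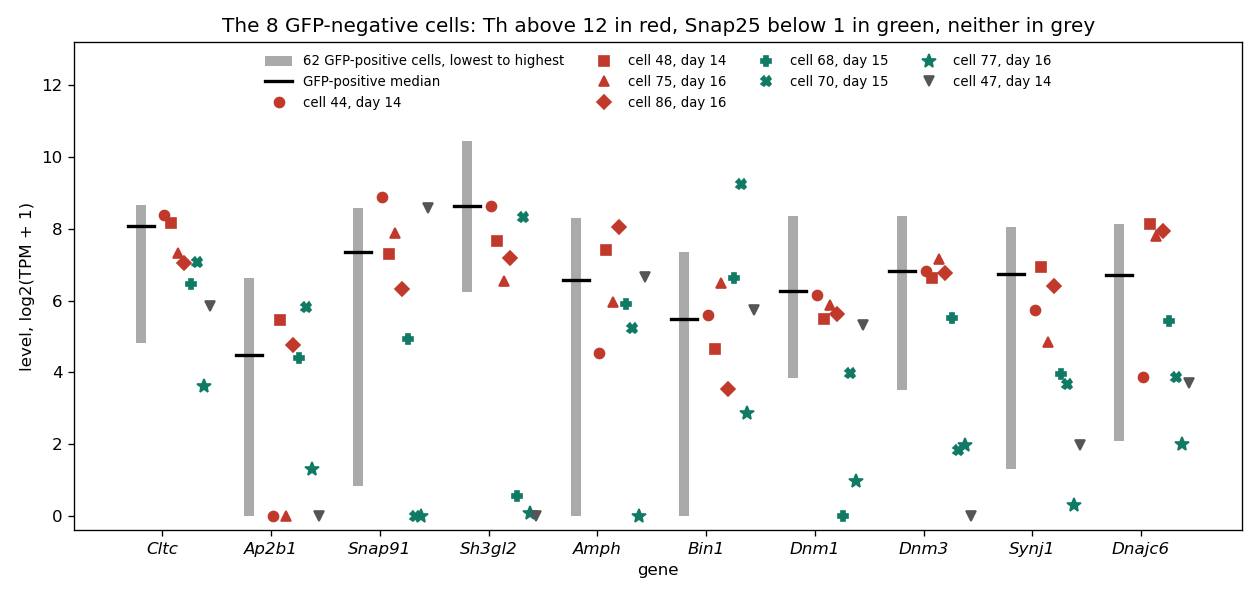
Level of each endocytosis gene, log2(TPM + 1), in the 8 GFP-negative cells (symbols; red where Th is above 12, green where Snap25 is below 1, grey where neither is) beside the range from lowest to highest (grey bar) and the median (black line) of the 62 GFP-positive cells. The red symbols mostly lie within the grey bars, and several green ones lie below them, except for Bin1 in cell 70 at 9.24. The lower ends of the bars of Sh3gl2 and Cltc are of cell 5 and that of Dnm1 is of cell 89, both dominated by a short RNA.

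The 10 GFP-positive cells with 5000 genes or fewer held the group unevenly. Between 0 and 9 of the 10 genes were detected in them, with a median of 6.5. Cell 18, with 1271 genes detected, held none of the 10, while its Mbp was at 14.85 and its Gad1 at 0. Cell 96, with 3699 genes detected, held 9, with Sh3gl2 at 8.97 and Cltc at 9.16, inside or above the range of the 62 cells. Over all 72 GFP-positive cells the genes were detected in 59 (Bin1) to 69 (Dnm1 and Dnm3) cells.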

How the data were processed

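Single SNr cells were picked by hand and sequenced with SMART-seq2, a kit that does not mark strand. According to the labels and methods, the authors aligned read pairs of 25 bases with TopHat2 2.0.10 to mm10, quantified genes with Cufflinks 2.2.1 and Cuffnorm, kept cells with at least 50% of reads and 100000 pairs aligned, and deposited a table of FPKM per gene in each cell. The annotation and the scaling option of Cuffnorm are not given in the sources used here.

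From the deposited FPKM, TPM were computed per cell (FPKM over the sum of the column, times 1000000), with a pseudocount of 1 on the log2 scale and detection at TPM > 1. The 62 GFP-positive cells with more than 5000 genes detected were used, with no test across cells because no animal is named. Partial Pearson correlations held the number of genes detected fixed and were compared with genes detected in at least 50% of cells. Shares carry exact (Clopper-Pearson) 95% intervals, and a count of 0 allows 3 counts, both for counting error only. GFP-negative and GFP-positive means were compared by a log2 difference of 1. The table holds no counts, so fragments per cell were estimated from the spacing of low FPKM of 1083 genes, as a multiple of 1 fragment. The correlation and depth steps were tested on simulated data. Identifiers and positions came from GENCODE M21 (GRCm38), upstream sequences from RefSeq. Python 3.11.15, numpy 2.4.6, pandas 2.3.3, scipy 1.17.1 and matplotlib 3.10.9 were used.

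The members and all gene lists were chosen with earlier results of these data known. Named genes are the members, the genes of those lists, and the 5 genes most correlated with Synj1 and with the member mean. The short RNAs Rnu6 and AF357359 were named after their values were seen, as were pairs of members with their partners. Alternatives were FPKM instead of TPM, a smaller pseudocount (0.1), all 72 GFP-positive cells, and detection at TPM > 0, 5 and 10. Further ones held other quantities fixed (none, age, second index, glial markers, fragments), or used ranks, single ages or no filter on low values. Others left out cells without Nalcn, or cells 10 and 12 alone. These are 2 of the 4 cells with Nalcn at 0, all equally far from its median. Leaving out dominant genes, the cells they dominate, each cell in turn, or shallow GFP-negative cells was chosen after seeing the data. No 2 columns were identical, and the 80 cells carried 80 distinct barcode pairs. Results on a few further marker and overlapping genes are not reported here.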

Additional observations from a re-analysis of the deposited data

Results flagged for a closer look

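Within 50 groups of 4 to 10 values (a gene in the cells of day 14, of day 20 or in the GFP-negative cells, and its means and correlations over the 4 ages), 7 held a cell whose gap to its neighbour was unusually wide for the group's range. The limits used give about 1 in 20 groups for independent, normally distributed values. The groups here share cells and some hold values at 0, so that rate does not apply and no excess is read. Of the 7, 4 came from the same GFP-positive cell of day 14, cell 45. It had Synj1 at 4.46 (next lowest 6.37), Dnm3 at 3.51 (6.73), Amph at 0.35 (5.96) and Ap2b1 at 0 (4.28). The same cell had the highest Dnm1 of the 62 cells, 8.36, a Gad1 level of 9.19 and the highest mean of astrocyte markers, 7.46, with Aqp4 at 7.44. The part of astrocyte RNA in these values was not tested. At day 20, Dnajc6 was low in cell 33 at 5.17 (6.67), and Ap2b1 was at 0 in cell 29 (3.09), which had the fewest estimated fragments of the 62 cells, 150594. Among the GFP-negative cells, Amph was at 0 in cell 77 (4.53), where Rnu6 held 93.3% of the FPKM.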

How the results depend on the processing

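Over 38 alternatives, 96 values were recomputed 1600 times. Of these, 1434 moved by less than the spread between ages (for GFP-negative differences, between cells; for shares, the exact interval; for counts, a factor of 1.5), 154 moved by more, and in 12 a correlation of at least 0.3 in size changed sign. Counting values of any size, the sign changed 164 times in 46 values. All 10 genes stayed detected in at least 50% of cells in every setting run.

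The median of the mean levels, 6.46, was 5.47 in FPKM and 5.98 over all GFP-positive cells. The partial correlation of Synj1 with Nalcn, 0.632, was 0.049 within day 20. The number of genes at 0.3 or more with Nalcn, 4, was 2 in FPKM, over all GFP-positive cells, with dominant genes left out of the sum, without the dominated cells, by Spearman ranks, without day 15, within day 16 and within day 20, and 6 within day 14 and within day 15. Leaving out single cells gave 2 to 5, with 2 after omitting cell 5, 24, 28, 89 or 95, since Snap91 and Dnajc6 lie at 0.304. Shares over all genes in these settings are not set beside the counts, so nothing is read from their changes.

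The median of the 45 pairs, 0.218, was 0.101 in FPKM, 0.088 with dominant genes left out of the sum, 0.081 without the dominated cells and 0.054 within day 14. The number of pairs at 0.3 or more, 12, was 7, 3 and 5 in the first 3 of these settings and 21 over all GFP-positive cells. In that last setting 10 shallow cells, 2 of them dominated by a short RNA, enter. The number of genes lower by at least 1 in GFP-negative cells, 8, was 5 in FPKM, over cells with more than 5000 genes and with Rnu6 left out of the sum of cell 77 alone, and 5 to 8 when single GFP-negative cells were left out, with 5 without cell 77. Beyond the shares given in the results above, shares over all genes or pairs are not set beside these counts, so nothing is read from their changes.

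The 12 sign changes of correlations of 0.3 or more came within single ages, where 9 to 24 cells remain. Of the changes in smaller values, 54 came within single ages and 98 in other settings, such as Dnm1 with Dnm3, which went from 0.149 to -0.072 in FPKM and -0.101 without the dominated cells, and Cltc with Nalcn, which went from 0.199 to -0.072 over all GFP-positive cells. With Nalcn, Snap91 had -0.0005 and Dnajc6 -0.496 at day 20. At day 14, Cltc had -0.095 with Synj1, -0.149 with Dnm1, -0.077 with Dnm3 and -0.338 with Snap91, and Dnm1 had -0.019 with Bin1. Snap91 had -0.012 with Cltc at day 15 and Sh3gl2 had -0.093 with Amph at day 16. At day 20, Cltc had -0.011 with Dnm1 and -0.249 with Dnajc6, and Dnm3 had -0.044 with Sh3gl2. The cause of these changes was not tested.

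No animal is named, so spread between cells and between mice cannot be separated. Depth differed widely between cells, and at the lowest depths a transcript that was present can be missed.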
